A study of Mus musculus with 2 samples.

Results

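The regions described here were the annotated 5′ ends of long noncoding RNA (lncRNA) genes that lie far from protein-coding genes. They were taken from GENCODE M21, from the gene types lincRNA, antisense, processed_transcript and bidirectional_promoter_lncRNA on chromosomes 1 to 19. A gene was kept if its 5′ end lay more than 5 kb from every protein-coding transcription start site, and the region scored was 1 kb to each side of that 5′ end. Of 9065 lncRNA 5′ ends of these types, 6191 were kept, and they are called distant lncRNA 5′ ends below. They comprised 4505 lincRNA genes, 1341 antisense genes, 344 processed transcripts and 1 gene annotated with a bidirectional promoter. The remaining 2874 lncRNA 5′ ends, which lay within 5 kb of a protein-coding start site, and 20807 protein-coding 5′ ends were scored in the same way for comparison.

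DNase-seq had been done on MN1, a mouse line of strain B6NCrl that the labels call immortalized, in 2 biological replicates with 1 library each. DNase-seq finds DNA that the enzyme DNase I can cut in nuclei, which marks promoters, enhancers and other sites where nucleosomes are displaced. The labels give no treatment, age, sex or tissue of origin, and no second condition was sampled, so no test between groups exists and all differences below are counts in 2 libraries of 1 line. Replicate 1 held 170600 peaks and replicate 2 held 162983, called in each library separately. Their read depth is unknown. At protein-coding 5′ ends, both libraries had peaks at 6 of 6 neuronal marker genes and at 4 of 5 motor neuron markers (Lhx3, Isl1, Slc18a3 and Chat, not Mnx1). The counts were 2 of 4 for fibroblast, 1 of 3 for blood and 1 of 3 for epithelial markers. Over all protein-coding 5′ ends the share was 55.9%. With lists this short the counts do not settle cell identity.

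Long noncoding RNAs are transcribed by RNA polymerase II, and many are capped, spliced and polyadenylated like messenger RNAs. Some act as RNA, as scaffolds of nuclear bodies or as silencers of neighbouring genes in imprinted clusters, and others serve mainly as carriers of small RNAs that are cut from their introns or exons. Many lncRNA genes are active in few cell types, and many start in enhancer-like sequence that is poor in CpG dinucleotides, whereas genes active in most cells usually start in CpG islands.

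The sequences of 10 of these promoters are printed first because their CpG counts differ widely. Each is the 150 bp peak of replicate 1 nearest to the 5′ end, read 5′ to 3′ on the gene's strand from the RefSeq copy of GRCm38, the assembly also called mm10. Capitals mark matches on either strand to short core motifs: SP/KLF (CCCGCCC), CRE (TGACGTC), ETS (CCGGAAG) and E-box (CAGCTG). Matches to CRE on both strands overlap and so run together. The first 5 hold the most CpG dinucleotides, 16 to 25 in 150 bp. These are raw counts, not adjusted for C and G content.

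Snhg15, chr11:6528756-6528905, minus strand: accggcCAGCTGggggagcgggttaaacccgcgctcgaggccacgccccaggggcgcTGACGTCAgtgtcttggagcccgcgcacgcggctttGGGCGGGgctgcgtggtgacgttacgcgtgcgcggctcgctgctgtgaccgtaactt
Gm6410, chr8:4678376-4678525, plus strand: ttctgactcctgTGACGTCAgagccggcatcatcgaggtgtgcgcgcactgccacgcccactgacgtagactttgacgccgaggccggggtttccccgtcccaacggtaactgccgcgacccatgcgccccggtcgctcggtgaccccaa
Snhg8, chr3:123508396-123508545, minus strand: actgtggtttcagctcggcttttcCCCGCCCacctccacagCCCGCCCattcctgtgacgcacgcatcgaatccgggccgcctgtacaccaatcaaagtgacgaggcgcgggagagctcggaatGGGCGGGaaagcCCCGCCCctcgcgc
Mir9-3hg, chr7:79499956-79500105, plus strand: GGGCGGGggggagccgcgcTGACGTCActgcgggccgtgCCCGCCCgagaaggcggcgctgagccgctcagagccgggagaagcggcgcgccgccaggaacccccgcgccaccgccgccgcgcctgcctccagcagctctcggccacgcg
Pvt1, chr15:62037896-62038045, plus strand: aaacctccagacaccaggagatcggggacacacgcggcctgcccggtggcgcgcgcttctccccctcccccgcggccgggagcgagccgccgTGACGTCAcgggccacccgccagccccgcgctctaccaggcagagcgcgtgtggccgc
Malat1, chr19:5802596-5802745, minus strand: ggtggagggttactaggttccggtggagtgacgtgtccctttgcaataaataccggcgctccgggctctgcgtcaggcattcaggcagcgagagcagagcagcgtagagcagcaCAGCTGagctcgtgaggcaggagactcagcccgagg
Kcnq1ot1, chr7:143296556-143296705, minus strand: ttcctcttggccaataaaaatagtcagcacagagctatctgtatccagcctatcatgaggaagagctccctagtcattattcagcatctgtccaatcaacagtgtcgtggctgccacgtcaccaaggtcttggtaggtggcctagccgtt
Trp53cor1, chr17:29078976-29079125, minus strand: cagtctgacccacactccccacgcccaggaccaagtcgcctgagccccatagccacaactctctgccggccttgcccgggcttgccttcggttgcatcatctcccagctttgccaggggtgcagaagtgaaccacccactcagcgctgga
Lncenc1, chr13:97434936-97435085, plus strand: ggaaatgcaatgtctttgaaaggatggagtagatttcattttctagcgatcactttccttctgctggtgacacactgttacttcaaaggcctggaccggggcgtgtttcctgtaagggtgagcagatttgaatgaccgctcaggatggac
Platr16, chr4:145410156-145410305, plus strand: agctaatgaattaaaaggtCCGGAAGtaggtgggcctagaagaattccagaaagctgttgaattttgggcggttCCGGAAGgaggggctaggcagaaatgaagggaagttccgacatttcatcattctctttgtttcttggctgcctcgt

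The peak of Snhg15 held 21 CpG dinucleotides in 150 bp, that of Mir9-3hg 25 and that of Pvt1 21. Snhg8 had an SP/KLF match but none to CRE, whereas Gm6410 and Pvt1 had CRE and no SP/KLF match. The peak of Malat1 held 10 CpG, and those of Trp53cor1, Platr16, Lncenc1 and Kcnq1ot1 held 6, 5, 4 and 3. Kcnq1ot1, Trp53cor1 and Lncenc1 matched none of the 13 motifs searched, and Platr16 matched ETS alone.

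Most distant lncRNA 5′ ends had no peak in MN1. Below, a region is called open if each library had a peak in it and closed if neither did, which at unknown depth says only that no peak was called. A peak was present in both libraries at 1134 of 6191, or 18.3%, and 4655 (75.2%) had no peak in either. Replicate 1 had a peak at 1338 of them and replicate 2 at 1332, so the libraries gave the same total within 6 regions. The background was 7.33% of all 2 kb tiles of chromosomes 1 to 19 with a peak in both libraries. At protein-coding 5′ ends the share was 55.9%, and at the lncRNA 5′ ends within 5 kb of a coding start it was 54.5%. Hotspots, the broader regions of cutting in the deposited files, gave the same order, with 18.9% of distant lncRNA 5′ ends (1170) in both libraries against 7.89% of tiles, 56.3% of protein-coding and 55.6% of nearer lncRNA 5′ ends. Only 36 distant lncRNA 5′ ends had a hotspot in both libraries without a peak in both. Because neighbouring genes can share a region, 332 of the 6191 overlapped another, and merging them left 6024 regions, of which 1100 had a peak in both libraries.

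Peaks were densest at the annotated start, though many lay further off. The nearest peak centre was within 150 bp at 50.9% of open distant lncRNA 5′ ends in replicate 1 and 51.1% in replicate 2. In steps of 100 bp, the density of peak centres was highest in the 100 bp just upstream of the 5′ end, at 53.9 peak centres per 1000 starts in replicate 1 and 52.2 in replicate 2. Between 4 and 5 kb away it was 8.93 and 8.63, so the summit stood 6.04 times above its surroundings in each library. Protein-coding starts had their summit in the same step, at 267 and 250 per 1000, or 20.9 times the level at 4 to 5 kb. At the distant lncRNA 5′ ends of the highest CpG class the summit reached 261 and 225 per 1000. The protein-coding summit was taken over all CpG classes, so these heights come from unlike sets. In the highest class itself, 54.1% of distant lncRNA and 86.3% of protein-coding 5′ ends had a peak in both libraries. The summit at distant lncRNA 5′ ends of the lowest CpG class was 24.7 and 25.5 per 1000.

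**Figure D1:**
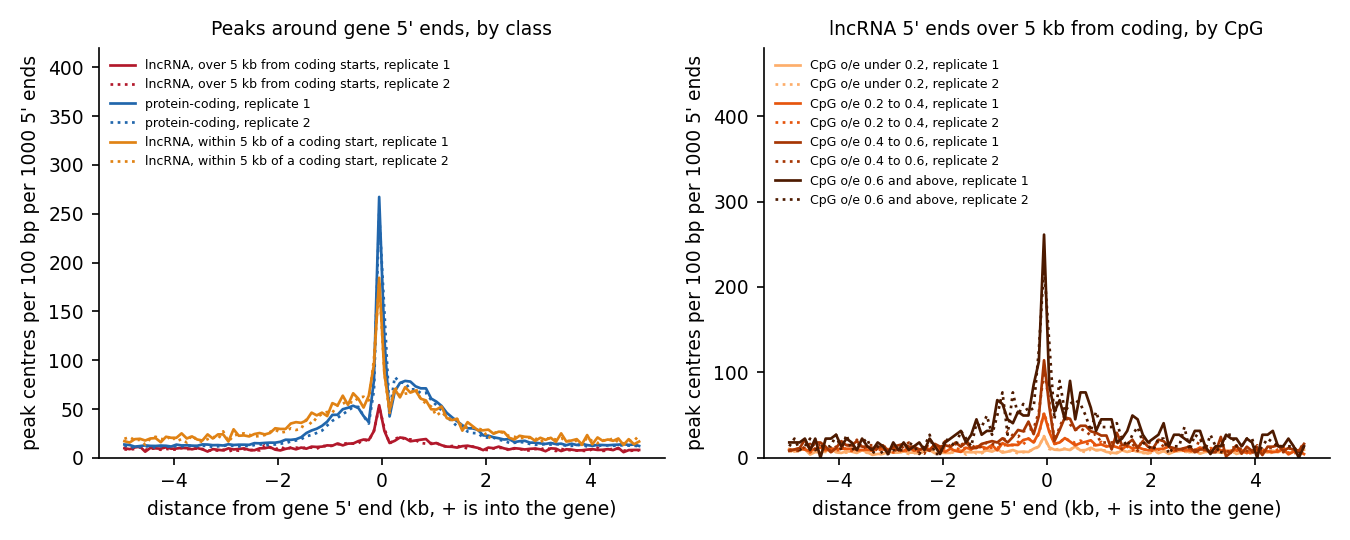
Peak centres per 100 bp per 1000 gene 5′ ends (y axis) against distance from the 5′ end in kb (x axis, positive into the gene), for 3 classes of 5′ end (left) and for distant lncRNA 5′ ends by CpG observed/expected class (right); solid lines are replicate 1 and dotted lines replicate 2. The distant lncRNA curve peaks at 53.9 and 52.2 just upstream of the start, far under the protein-coding 267 and 250. Its highest CpG class reaches 261 and 225, whereas the protein-coding curve covers all CpG classes.

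Over all CpG classes together, peaks at open distant lncRNA 5′ ends were weaker and less tightly placed than at coding genes. Values by CpG class are given below. Strength was read as the percentile of the authors' peak score within its own library, where 100 is the highest. Over the 1134 open distant lncRNA 5′ ends, the best peak in the region had a median percentile of 76.1 in replicate 1 and 72.7 in replicate 2. Over the 11641 open protein-coding 5′ ends the medians were 95.8 and 95.6. A best peak in the top 10% of its list was found at 260 (22.9%) and 223 (19.7%) of the open distant lncRNA 5′ ends, against 74.0% and 76.4% of the open protein-coding ones. The nearest peak centre lay a median of 145.5 and 143 bp from the lncRNA 5′ end and 60 and 56 bp from the coding one. Hotspots covered a median of 630 and 599.5 bp of the 2 kb region at open distant lncRNA 5′ ends and 1426 and 1364 bp at protein-coding ones.

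Openness rose with CpG content. CpG observed/expected, the number of CpG dinucleotides within 500 bp of the 5′ end relative to the number its C and G content would give, split the distant lncRNA 5′ ends into 4 classes. Under 0.2, 283 of 2628 (10.8%) had a peak in both libraries, and from 0.2 to 0.4, 533 of 2728 (19.5%) did. From 0.4 to 0.6 the share was 32.3% (198 of 613), and at 0.6 and above it was 54.1% (120 of 222). In the same order, replicate 1 alone gave 14.04%, 23.1%, 34.9% and 55.9%, and replicate 2 alone gave 14.3%, 22.8%, 34.1% and 56.3%, so the order was the same in each library.

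Protein-coding 5′ ends of the same classes had 8.58%, 28.9%, 62.1% and 86.3% with a peak in both. Thus in the lowest CpG class distant lncRNA 5′ ends were open slightly more often than coding ones, and in the others less often. The classes were also filled unequally: 3.59% of distant lncRNA 5′ ends lay at 0.6 or above, against 47.2% of protein-coding 5′ ends. Peak strength followed the same order. The median percentile of the best peak at open distant lncRNA 5′ ends was 65.8 and 60.3 in the lowest CpG class and 94.1 and 94.2 in the highest. Coding 5′ ends had 64.2 and 64.5 in the lowest class and 96.8 and 96.9 in the highest. In the lowest class the lncRNA median was thus higher than the coding one in replicate 1 and lower in replicate 2. The median distance of the nearest peak from the start fell from 256 and 275 bp in the lowest class to 76 and 73 bp in the highest.

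**Figure D2:**
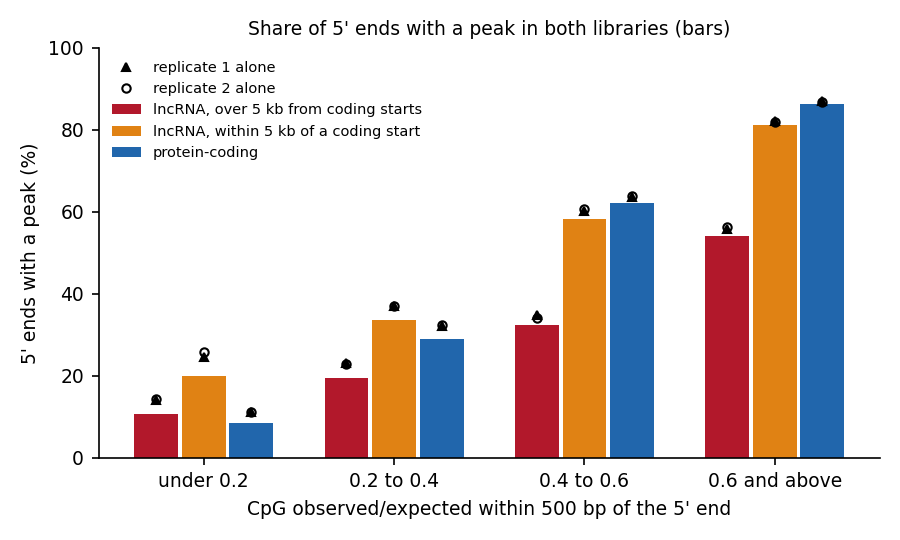
Share of 5′ ends with a peak in both libraries (bars, %) by CpG observed/expected within 500 bp of the 5′ end (x axis), for distant lncRNA, nearer lncRNA and protein-coding 5′ ends; triangles and circles give replicate 1 and replicate 2 alone. The distant lncRNA bars climb from 10.8% to 54.1% and the protein-coding bars from 8.58% to 86.3%.

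Repeats went with closure at a given CpG content. The 5′ end itself lay in annotated repeat sequence at 1270 distant lncRNA genes, of which 135 (10.6%) had a peak in both libraries, against 999 of 4921 (20.3%) outside repeats. In the highest CpG class, 6 of 34 5′ ends in repeats were open against 114 of 188 outside them.

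Openness was also higher near coding genes, even beyond the 5 kb that the selection removed. The share with a peak in both libraries was 24.2% at 5 to 10 kb from the nearest protein-coding start site, 23.2% at 10 to 20 kb, 22.7% at 20 to 50 kb, 19.9% at 50 to 100 kb, 15.1% at 100 to 200 kb and 6.17% (69 of 1118) beyond 200 kb. The nearest coding gene's own state went with it. Where that gene had a peak in both libraries at any of its start sites, 899 of 3895 distant lncRNA 5′ ends (23.1%) were open, against 235 of 2296 (10.2%) where it had none. The gap held at both ranges of distance: within 50 kb the shares were 28.2% and 13.4%, and beyond 50 kb 17.6% and 7.72%. Across chromosomes, the share ran from 13.3% on chromosome 10 to 32.1% on chromosome 17 (86 of 268), with chromosome 11 next highest at 24.5%.

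**Figure D3:**
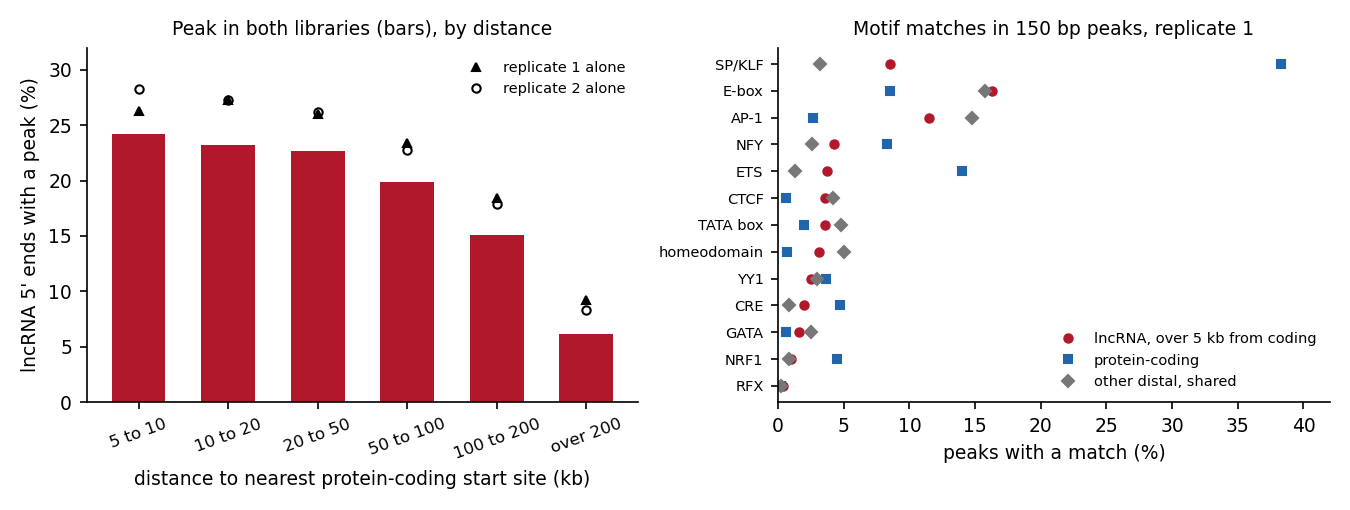
Left: share of distant lncRNA 5′ ends with a peak in both libraries (bars, %) by distance to the nearest protein-coding start site in kb, with replicate 1 (triangles) and replicate 2 (circles) alone. Right: share of 150 bp peaks of replicate 1 with a match to each motif (x axis, %) for peaks at distant lncRNA 5′ ends (circles), at protein-coding 5′ ends (squares) and at other distal sites shared by both libraries (diamonds). The bars fall from 24.2% to 6.17%, and the lncRNA points lie near the distal ones for AP-1 and between the others for SP/KLF.

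Annotation support and gene type also went with openness. Genes with a transcript of support level 1, the best level, were open at 21.6% (526 of 2433), and those of level 5, the lowest, at 12.5% (130 of 1036). The 1431 genes with no support level were open at 17.1%. Processed transcripts were open at 29.7% (102 of 344), lincRNA genes at 17.7% and antisense genes at 17.5%. Intergenic 5′ ends (18.7% of 4941) and those inside a protein-coding gene (16.96% of 1250) were similar.

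Open distant lncRNA promoters held SP/KLF, ETS, AP-1 and CTCF matches at shares between those of coding promoters and of other distal sites. Motifs were matched by exact letters on both strands in the replicate 1 peak nearest to each 5′ end, which gave 1113 distinct peaks. The SP/KLF core CCCGCCC, the GC box of many CpG island promoters, was in 8.54% of them, against 38.3% of 10802 protein-coding promoter peaks and 3.15% of other distal peaks that both libraries shared. All peaks of replicate 1 gave 6.39%. The AP-1 core TGANTCA, the site of Fos and Jun dimers, occurred in 11.5%, against 2.62% at protein-coding promoters, 14.8% at other shared distal peaks and 10.9% of all peaks. The ETS core CCGGAAG was in 3.68%, against 14.03% at protein-coding promoters, 1.32% at other distal peaks and 2.26% of all peaks. CTCF, the insulator protein, had a match to its motif in 3.59% of the lncRNA peaks, 0.61% of coding ones, 4.21% of other distal ones and 2.51% of all peaks.

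Within the lncRNA promoters the motifs sorted with CpG. AP-1 matches fell from 15.7% of peaks in the lowest CpG class to 3.36% in the highest, and SP/KLF matches rose from 2.86% to 34.5%. A GC-rich core is more frequent in GC-rich sequence by its letters alone, and protein-coding promoter peaks showed the same course, from 12.9% to 1.53% for AP-1 and from 5.56% to 44.3% for SP/KLF. The E-box core CAGCTG, a site of basic helix-loop-helix proteins, was in 16.3% of the lncRNA peaks, close to the 15.8% of other shared distal peaks, against 8.54% of protein-coding ones and 13.0% of all peaks. The NFY core AGCCAAT was in 4.22% against 2.90% of all peaks, and CRE, a site of CREB and ATF proteins, in 1.98% against 1.09%. Fewer lncRNA peaks than peaks in general held the homeodomain core TAATTA (3.14% against 4.49%), the TATA box TATAAA (3.59% against 5.39%), the YY1 core AAGATGG (2.52% against 3.001%) or the core AGATAAG of GATA factors (1.62% against 2.32%). The NRF1 core CGCATGC was in 0.99% and 1.05%, and RFX matched 4 peaks.

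Genes that carry small nucleolar RNAs, the guides of ribosomal RNA modification, were open throughout. All 8 listed snoRNA host genes that lay beyond 5 kb of coding starts had a peak in both libraries, where 18.3% of all distant lncRNA 5′ ends did. The median CpG ratio of the 8 was 0.69, and 54.1% of distant lncRNA 5′ ends with a ratio of 0.6 or above were open. Their best peaks ranked at percentiles 92.4 to 99.8 in replicate 1 and 90.1 to 99.9 in replicate 2. Snhg15 had 2 peaks in replicate 1 and 5 in replicate 2, with best scores at the 99.8 and 99.9 percentiles and the nearest peak centre 71 bp upstream of the 5′ end in each. Snhg8 reached 97.8 and 97.9, Snhg6 98.1 and 96.9, Snhg5 96.5 and 96.4, and Dancr 96.0 and 96.4. Snhg17 (93.8 and 91.8) and Snhg12 (92.4 and 90.1) were the lowest of those with a peak near the start. Snhg20 differed in position: its only peak lay 763 bp inside the gene in replicate 1 and 783 bp in replicate 2, with an ETS match, and its 5′ end was the only one of the 8 with a CpG ratio under 0.6 (0.35).

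All 7 broadly expressed lncRNAs beyond 5 kb of coding starts were open too, 4 of them also counted in another list. Their median CpG ratio was 0.65, which again lies in the class with 54.1% open. Malat1, an abundant RNA of nuclear speckles, had its nearest peak centre 1 bp into the gene in both libraries, at the 93.8 and 93.9 percentiles. Neat1, the scaffold of paraspeckles, had 3 and 4 peaks with best percentiles of 94.7 and 94.8. The opposing transcript Frmd8os starts beside it and has the same best percentiles, so the 2 genes are not independent. By the lower of the percentiles of both libraries, 2900097C17Rik was the weakest of the 7, at 89.6 and 83.5.

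Among genes tied to growth control, 4 of 6 were open, beside 18.3% of all distant lncRNA 5′ ends. This list had a median CpG ratio of 0.47, and the share open at ratios of 0.4 to 0.6 was 32.3%. Trp53cor1, the p53-induced lincRNA-p21 next to Cdkn1a, had best peaks at 96.8 and 95.3, the nearest 128 and 108 bp inside the gene. Dleu2, a host of growth-restraining microRNAs, ranked at 92.7 and 96.9, and its whole 2 kb region was covered by hotspot in both libraries. Lncpint, another p53-induced transcript, ranked at 87.8 and 93.1, and Pvt1, the neighbour of Myc, at 83.1 and 83.5. Meg3 and Hotair had no peak at their 5′ ends.

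Of 11 genes in the microRNA host list, 6 were open and 5 closed, beside 18.3% open and 75.2% closed among all distant lncRNA 5′ ends. Their median CpG ratio was 0.42, and 32.3% of distant lncRNA 5′ ends with ratios of 0.4 to 0.6 were open. The list holds genes named as microRNA hosts, plus Dleu2, Lncpint and Mirg, so other carriers such as Dnm3os are not counted in it. The open ones were Dleu2, Lncpint, Mir17hg (88.9 and 91.5), Mir670hg (77.8 and 68.1), Mir9-3hg and Mir124a-1hg. At Mir17hg the replicate 1 peak nearest to the start lay 392 bp into the gene and ranked only at 13.04. With regions of 500 bp to each side, Mir17hg did not have a peak in both libraries. Mir9-3hg and Mir124a-1hg carry miR-9 and miR-124, microRNAs typical of neural progenitors and neurons, and had weaker peaks than the growth-linked hosts. Mir9-3hg ranked at 70.9 and 60.3, and Mir124a-1hg at 42.2 and 60.3 with 4 peaks in each library. Mir124-2hg, a further miR-124 host, had no peak or hotspot, and neither did Mir155hg, the host of an immune microRNA, although its CpG ratio was 0.87. Mir99ahg, Mirg and Mir133a-1hg were the remaining closed hosts.

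Of 13 neural lncRNAs, 2 were open (15.4%), Mir9-3hg and Mir124a-1hg, beside 18.3% of all distant lncRNA 5′ ends. The median CpG ratio of the 13 was 0.47, and at ratios of 0.4 to 0.6 the share of distant lncRNA 5′ ends open was 32.3%. The other 11 had no peak in either library at their annotated 5′ ends. Sox2ot, which overlaps Sox2, had none at any of its 18 annotated start sites, and Miat, a nuclear RNA of neurons, none at any of 6. Dlx1as, Dlx6os1, Pantr2 and Celrr had none either. For 4 others a peak lay at a different start site of the same gene. Meg3, an imprinted RNA expressed from the maternal allele, had a best peak at 65.04 and 65.97 near start sites 4.40 to 5.44 kb into the gene. Rmst, a neurogenesis-linked RNA, had one at 53.8 and 38.2 near starts 2.03 to 3.01 kb into the gene. C130071C03Rik, near Mef2c, had one at 58.9 and 24.7 at a start 11.2 kb inside, and 2610307P16Rik, near Sox4, one at 60.8 and 22.6 at a start 364.5 kb inside. Counting any start site gave 6 of 13 for the neural list and 1191 of 6191 (19.2%) for all distant lncRNA genes. A gene with more annotated start sites has more regions in which a peak can count. These shares were not matched for that number.

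**Figure D4:**
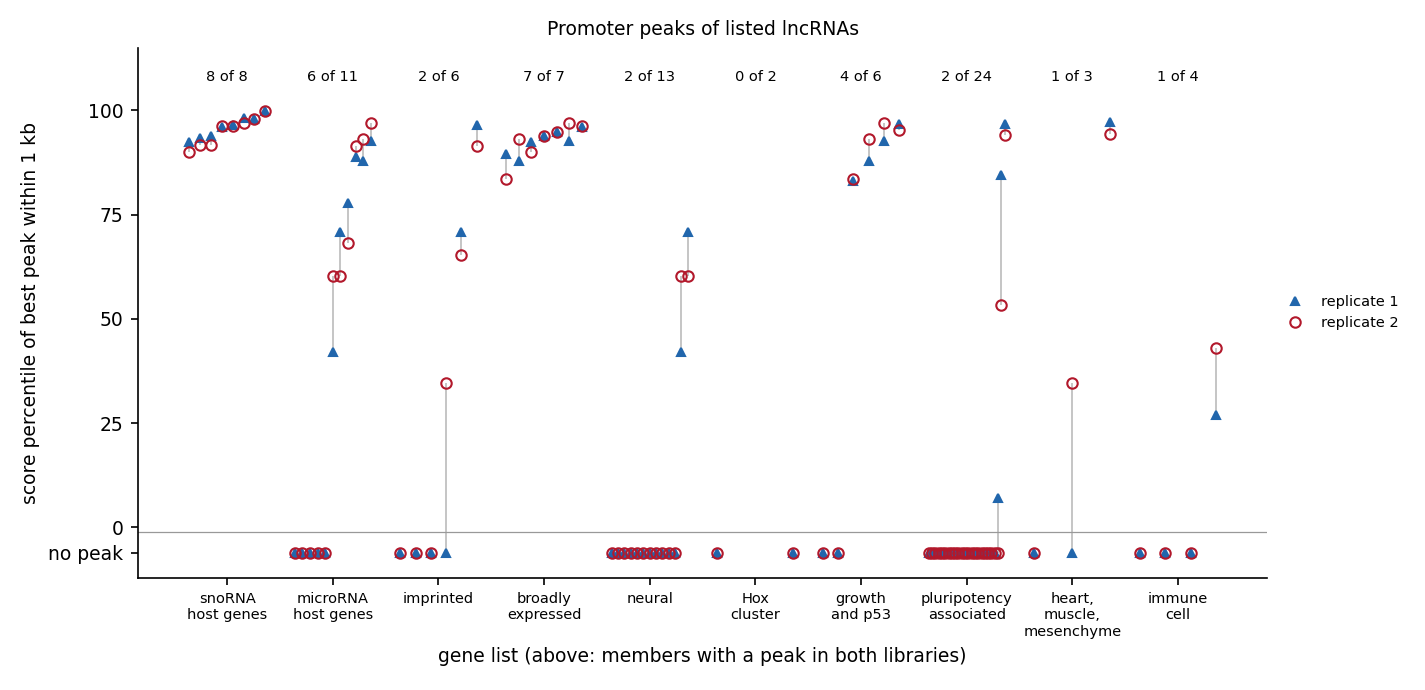
Score percentile of the best peak within 1 kb of the 5′ end (y axis) for each distant lncRNA gene in 10 gene lists (x axis); triangles are replicate 1, circles replicate 2, a grey line joins the values of a gene, and genes without a peak lie under the horizontal line. Numbers above give genes with a peak in both libraries: 8 of 8 snoRNA host genes, 7 of 7 broadly expressed genes, 2 of 13 neural and 2 of 24 pluripotency associated genes, where the share over all distant lncRNA 5′ ends was 18.3%. That share is not matched for CpG ratio, which differs between the lists.

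Of 6 imprinted lncRNAs, 2 were open, beside 18.3% of all distant lncRNA 5′ ends. At CpG ratios of 0.4 to 0.6, where the list median of 0.46 lies, 32.3% were open. Kcnq1ot1, which silences neighbours such as Cdkn1c on the paternal allele, had 3 and 4 peaks at best percentiles of 96.5 and 91.5, the nearest 82 and 62 bp upstream of its start. Airn, which silences Igf2r on the paternal allele, had 1 peak in each library, at 70.9 and 65.2 and centred 20 bp upstream in both. H19 had a peak in replicate 2 alone (34.7), 832 bp inside the gene. Meg3, Mirg and Nctc1 had none at the 5′ end. DNase-seq peaks do not separate the alleles.

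Of 24 pluripotency associated transcripts, 2 were open, where 18.3% of all distant lncRNA 5′ ends were open and 75.2% closed. Lncenc1, a transcript of embryonic stem cells, had 3 peaks in each library with best percentiles of 96.8 and 94.1. Platr16 had 3 and 2 peaks at 84.4 and 53.2, both with the nearest centre 14 bp upstream of the 5′ end. Platr14 had a low peak in replicate 1 alone (6.98), and Platr29 had a hotspot in both libraries without a peak. The other 20 had neither.

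The remaining lists were small. Both Hox cluster transcripts, Hotair and Halr1, were closed, as were 75.2% of all distant lncRNA 5′ ends. Carmn, a smooth muscle and heart transcript, was open with 5 and 4 peaks at 97.3 and 94.3, the only one of 3 in the heart, muscle and mesenchyme list with peaks in both libraries. Of 4 transcripts placed in the immune list, a grouping not checked here, Mirt1 had 1 weak peak in each library (26.9 and 43.0). Gm14005, known as Morrbid, a regulator of myeloid cell lifespan, had no peak at its outermost 5′ end but 9 of its 10 annotated start sites had peaks in both libraries. Those 9 lie 73.4 to 73.9 kb inside the gene and lie close together. At 8 of them the best percentiles were 67.4 and 78.1, and at the other they were 32.4 and 45.9.

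Transcripts named as opposite to a coding gene were open at 24 of 113, or 21.2%, close to the 18.3% of all distant lncRNA 5′ ends. Rab10os was the strongest, at 98.3 and 96.9. Dnm3os, which carries microRNAs of mesenchymal tissue, ranked at 96.0 and 94.8, Snhg7os at 95.8 and 95.8, and Runx2os2 at 93.0 and 92.3. The weakest in replicate 1 was Rsf1os1 (19.7 and 24.7).

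The 10 strongest promoters of the whole class all had a CpG ratio of 0.67 or more. By the lower of the 2 percentiles, Gm6410 came first, with 4 peaks in each library and best scores at the 99.96 and 99.87 percentiles. It was followed by Snhg15, 2810410L24Rik (99.8 and 99.8), Gm34590, Gm20732 (both 99.7 and 99.6), 6720427I07Rik, Gm15287, Gm26901, 1700096K18Rik and Gm12059, the lowest value among them being 99.1. Gm26901 lay 237 kb and Gm20732 104 kb from the nearest coding start. The farthest open 5′ end was that of C130073E24Rik, 2073 kb from the start of Tenm3, with 5 and 4 peaks at 89.9 and 88.2. Gm13470, 1325 kb from Zeb2, ranked at 28.8 and 60.3, and Gm29318, 1086 kb from Nr2f1, had a single weak peak in each library, at 17.999 and 18.36.

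Single genes departed from the CpG classes. B230209E15Rik had no CpG dinucleotide within 500 bp of its 5′ end and lay 731 kb from the nearest coding gene, Ndn, yet had 1 peak in each library, at 68.1 and 24.7. Gm13431, Gm30489, Gm6313 and Gm13749 followed with CpG ratios of 0.013 to 0.042 and peaks at percentiles between 10.3 and 70.2. Conversely AC125059.4 and 6530409C15Rik, with ratios of 1.07, had neither peak nor hotspot, and the nearest peak to 6530409C15Rik was 45.02 and 45.52 kb away. 9530036O11Rik, whose nearest coding gene is Shh, was closed at its 5′ end with a ratio of 1.01. Its 476 kb gene body held 38 and 28 peaks, a count not compared with other stretches of that length. Gm42418 (1.03) and AY036118 (1.00) lie together in a fragment of ribosomal RNA sequence that has many near-identical copies, so their state is uncertain.

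Several regions held many separate peaks. Gm31793 had 10 peaks in replicate 1 and 9 in replicate 2 within its 2 kb, Gm7967 had 9 and 7, 9430091E24Rik 8 and 7, Gm30074 7 and 4, and 9330175M20Rik 6 and 5. The median over open distant lncRNA 5′ ends was 2 peaks in each library. The 5′ end of Gm7967 lay in a repeat, and the other 4 did not.

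The 2 libraries gave like values where peaks were strong. Of 1536 distant lncRNA 5′ ends with a peak in either library, 1134 (73.8%) had one in both, against 94.4% at protein-coding 5′ ends. Of those whose best replicate 1 peak ranked above the 75 percentile, 99.8% also had a peak in replicate 2. Between percentiles 50 and 75 the figure was 94.9%, between 25 and 50 it was 74.8%, and up to 25 it was 30.2%. Starting from replicate 2, in the same order, the figures were 99.8%, 97.1%, 74.4% and 38.4%. Over the 1134 open regions, which share a cell line and their underlying sequence, the percentiles of the libraries correlated with a Pearson coefficient of 0.88 and a Spearman coefficient of 0.92. The percentiles lay within 10 points of each other at 791 and more than 30 apart at 30.

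Peaks in 1 library only were mostly weak, with median percentiles of 19.7 at the 204 regions of replicate 1 alone and 20.5 at the 198 of replicate 2 alone. The strongest with neither peak nor hotspot in the other library were Gm45833 (74.9), 4930526F13Rik (63.4), Gm11250 (62.6) and Gm44955 (59.9) in replicate 1. In replicate 2 they were Gm26532, with 4 peaks up to 67.4, Gm34388 (62.9), Gm38336 (58.5) and Gm36208 (57.5). Windows of 10 kb in which 1 library had at least 5 peaks and the other at most 25% of that number numbered 536 in favour of replicate 1 and 150 in favour of replicate 2. They held 23 distant lncRNA 5′ ends, of which 7 were open in both libraries, 8 in neither, 7 in replicate 1 alone and 1 in replicate 2 alone. These windows were picked for a difference between the libraries, so the last 2 counts are a description of them only.

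**Figure D5:**
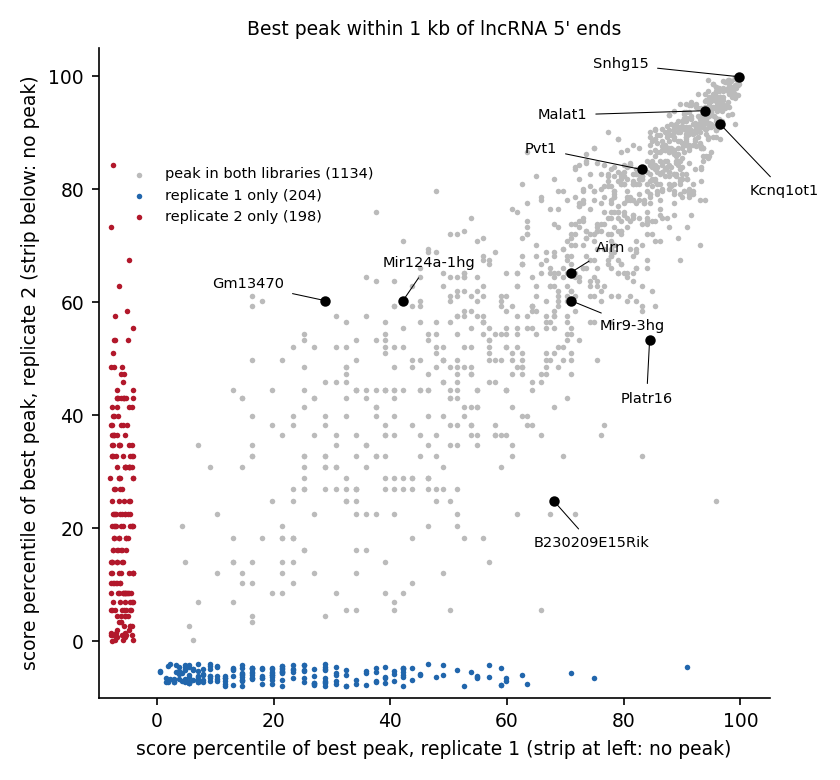
Score percentile of the best peak within 1 kb of distant lncRNA 5′ ends in replicate 1 (x axis) and replicate 2 (y axis); grey points are the 1134 regions with a peak in both libraries, black points are named genes, and the strips at the left and bottom hold the 198 and 204 regions with a peak in 1 library, spread sideways for visibility. The points narrow towards the diagonal at high percentiles, and the single-library strips are densest at low ones.

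The closed regions were not all remote from open chromatin. The 4655 distant lncRNA 5′ ends without a peak lay a median of 12.4 kb from the nearest peak in replicate 1 and 12.9 kb in replicate 2. Of these, 956 (20.5%) had a peak within 5 kb in both libraries, 898 had none within 50 kb in either, and 51 had a peak in both libraries at another start site of the same gene. The same distances were not computed for other regions of the genome, so the 20.5% is a description only.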

How the data were processed

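DNase-seq peaks and hotspots of 2 MN1 libraries were analysed. Both lists were derived from each library's own filtered alignments on mm10, without pooling, per the notes deposited with them. The sources used here do not give aligner, caller or threshold. Peaks are 150 bp wide and carry a score of 1 to 150 set by the authors, of unstated normalization, which served only as a percentile within a list. The deposited hotspots carry a −log10 q-value, with a lowest value of 1.30 and a ceiling of 100. Depth is unknown, so no interval is given. Repeated entries were removed (43 and 20).

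Distant lncRNA 5′ ends followed GENCODE M21 (90262 protein-coding start sites on chromosomes 1 to 19). A region counted as open in a library if a peak overlapped it by at least 1 bp, and as open in both if each library had such a peak. CpG observed/expected, repeats (lower-case letters) and motifs were read from the RefSeq sequence of GRCm38. Motifs were the exact letters given in the report, and CTCF and RFX were matched by 14-letter consensus sequences. The scoring was tested on simulated peaks. Analyses used Python 3.11.15, numpy 2.4.6 and pandas 2.3.3.

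The regions and gene lists were chosen with earlier results of these data known. Named genes were all members of the lists, the 10 highest by the lower percentile, the 5 with most peaks, up to 4 per library open in it alone with no hotspot in the other, the 5 open with the lowest and the 5 closed with the highest CpG ratio, and the 3 farthest open.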

Additional observations from a re-analysis of the deposited data

How the results depend on the processing

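The count of 1134 open distant lncRNA 5′ ends became 894 with regions of 500 bp to each side and 1645 with 2.5 kb, 1104 when the peak centre had to lie inside, 1110 when the peaks of the libraries had to overlap, and 818 with peaks at or above the median score. It stayed within 1.5 times of the main count under every alternative tried except that with antisense genes alone, which has fewer regions by construction (235 of 1341, 17.5%). The percentages by CpG class moved but kept their order: with CpG counted over 1 kb to each side they were 9.92%, 21.6%, 42.8% and 54.8%, and with regions of 500 bp to each side 7.04%, 15.4%, 27.6% and 53.6%. With 1 library left out they ranged from 14.04% to 14.3%, 22.8% to 23.1%, 34.1% to 34.9% and 55.9% to 56.3%. Ranked among peaks away from coding promoters, the median percentiles rose to 82.8 and 80.9. With the peak of replicate 2, or the highest-scoring peak, AP-1 matches were in 12.01% and 12.4%, ETS in 3.58% and 4.06%, SP/KLF in 9.14% and 9.02%, and CTCF in 3.49% and 4.42%.

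For lists and named genes the alternatives were chosen after seeing the data. The neural list fell to 1 of 13 with peaks at or above the median score, which Mir124a-1hg missed, and rose to 6 with any start site. Of 103 named genes outside the opposite-strand list, regions of 500 bp lost 3 (Snhg20, Mir17hg and Gm13431), and regions of 2.5 kb added 10, among them H19, Dlx1as and Platr29. Peaks at or above the median score lost 6, including Mirt1 and B230209E15Rik. No paired analysis was possible because there is only 1 group. Unknown depth means that a region without a peak was not detected as open, which does not show that it was closed.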

Other observations

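Open distant lncRNA 5′ ends were unevenly spread within chromosomes. Of 73 blocks of 5 Mb that held at least 20 of them, the block from 25 to 30 Mb of chromosome 17, which contains Trp53cor1, had the highest share, with 19 of 36 open in both libraries (19 in replicate 1 and 20 in replicate 2). The block from 165 to 170 Mb of chromosome 2 had 13 of 26, and that from 60 to 65 Mb of chromosome 11 had 10 of 21. At the other end, 0 of 24 were open in both libraries at 45 to 50 Mb of chromosome 8, 0 of 22 at 5 to 10 Mb of the same chromosome, and, on chromosome 12, 0 of 24 at 25 to 30 Mb and 0 of 20 at 10 to 15 Mb. The median distance to the nearest coding start was 18.3 kb in the highest block and 37.1, 172, 153 and 117 kb in these 4, in the order given. The blocks were examined after the chromosome 17 share had been seen, and no test was run on them.

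The strongest 5′ ends that were open in 1 library only had a peak of the other library outside the region but within 2.5 kb. Those above the 70 percentile were Gm32585 near Scarb1 (90.9, replicate 1), Gm45833 (74.9, replicate 1), Gm35818 (70.9, replicate 1), Gm45889 (84.2, replicate 2) and Gm15775 (73.2, replicate 2), picked after their values were seen. For all 5 the nearest peak centre of the other library lay 1.08 to 1.80 kb from the 5′ end. In the library with the peak, the nearest centre lay 0.024 kb away at Gm32585 and 0.023 kb at Gm45833. It lay 0.524 kb away at Gm15775, 0.921 kb at Gm45889 and 1.074 kb at Gm35818. Over all single-library 5′ ends, the other library had a peak centre within 2.5 kb at 50 of 204 in replicate 1 and at 55 of 198 in replicate 2. Among 5′ ends open in both, Gm49313 differed most between the libraries, with percentiles of 95.8 and 24.7, and AC140413.3 followed with 65.8 and 5.62.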
